A study of Mus musculus with 6 samples.

Results

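The blood vessels of the mouse prefrontal cortex were examined through 36 genes that mark their walls, 27 of endothelial cells and 9 of mural cells, out of 56923 genes listed in the tables. The genes were taken by name from a list of vessel markers, a rule that uses no measured value. Of the mural genes, 6 mark pericytes and 3 mark smooth muscle cells. RNA was compared between 3 mice whose *Pla2g4e* gene was disrupted in the germline (KO) and 3 wild-type mice (WT), and no treatment is labelled for either group. The KO mice carried the tm2a allele of *Pla2g4e*, in which a LacZ gene-trap cassette is predicted to abolish the transcript by splicing into the trap, in every cell of the body. The study gives the WT mice as littermates, uses both sexes and takes the prefrontal cortex as a piece cut from the front of the brain. The labels give no age, sex, litter or batch for these samples. They do not name the animal behind each library, so p-values measure the spread between these samples, which may in part be technical.

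Capillaries of the brain are lined by endothelial cells that are sealed to each other by tight junctions and that carry nutrients through dedicated transporters, which together form the blood-brain barrier. Pericytes are embedded in the basement membrane around capillaries and are recruited by PDGF-B from the endothelium through the receptor PDGFRB, while contractile smooth muscle cells wrap arterioles. VEGF, angiopoietin, Wnt and Notch signals shape and maintain these vessels. PLA2G4E is a calcium-dependent enzyme that makes N-acylphosphatidylethanolamines, the precursors of signalling lipids such as anandamide, and the comparison of KO with WT asks how cortical RNA differs when the gene is disrupted.

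The libraries held 11792463 to 14594230 fragments (read pairs) assigned to genes. *Pla2g4e* itself, on chromosome 2 at 119996893 to 120075816 (GRCm39), was at 5.95, 8.12 and 7.97 CPM for KO against 7.84, 11.3 and 13.2 CPM for WT, where CPM is the share of a library's fragments per 1e6 after TMM scaling. The library labelled WT replicate 1 thus lay within the KO range, and the gene's log2 fold change (KO over WT) was -0.55 ± 0.205 (SE, adjusted p = 0.635, limma-voom). Counts summed over all exons do not show where in the gene the fragments lie. *Xist*, the RNA of the inactive X chromosome, reached 1387 CPM for KO replicate 1 and 969 CPM for WT replicate 1 but no more than 0.246 CPM in the others, which held the Y-linked *Ddx3y* at 58.9 to 63.1 CPM, so 1 library of each group carried a female pattern. *Pla2g4e* was lower in KO between the libraries of that pattern (5.95 against 7.84 CPM) and among the others (8.12 and 7.97 against 11.3 and 13.2 CPM). This split was drawn from the counts and not from labels, and was not tested. Its female side sets 1 library against 1, at 88 and 100 fragments.

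All 36 vessel genes were detected in every library, with 50 to 1807 fragments per gene and library, so the filter on low counts removed none of them and the labelled cell types were represented by all of their markers. Levels of different genes are compared here per kilobase of exon (FPKM, from the same scaled counts) as means of the 6 libraries. Among endothelial genes the glucose transporter *Slc2a1* had the highest level at 25.5 FPKM, followed by the surface protein *Itm2a* at 20.6 FPKM and the tight junction protein *Cldn5* at 18.7 FPKM. *Cd93*, a surface receptor of endothelial cells, at 1.28 FPKM and the sialomucin *Emcn* at 0.886 FPKM were the lowest, and the others ran from 1.46 to 11.5 FPKM. Among pericyte genes *Vtn*, the extracellular matrix protein vitronectin, reached 36.4 FPKM and *Rgs5*, a regulator of G protein signalling, 22.7 FPKM, ahead of *Pdgfrb* at 6.10 FPKM and of *Notch3*, *Abcc9* and *Anpep* at 1.73 to 2.56 FPKM. The smooth muscle genes *Acta2*, *Tagln* and *Myh11*, all parts of or bound to the contractile filaments, were at 4.37, 2.54 and 1.45 FPKM. Neighbours in this order often did not differ beyond their spread: *Slc2a1* ran from 18.04 to 34.8 FPKM over the libraries, a range that covers the mean levels of both genes below it.

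**Figure D1:**
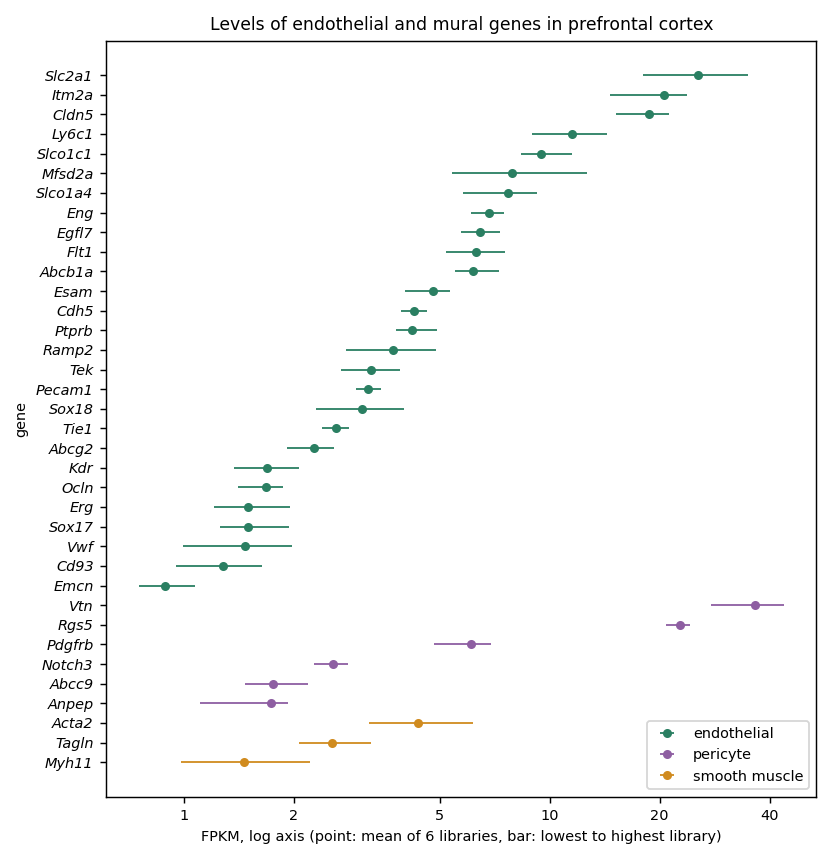
Level of each vessel gene as FPKM on a log axis, by endothelial, pericyte and smooth muscle class and in order of level within it, with points at the mean of the 6 libraries and bars from the lowest to the highest library. Mean levels spread from 0.886 FPKM for *Emcn* to 36.4 FPKM for *Vtn*, and the bars of most neighbours overlap.

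None of the 36 vessel genes had an adjusted p under 0.05 between KO and WT in limma-voom. The same held for all 19084 genes tested (0%), *Pla2g4e* included, and the lowest adjusted p among the 36 was 0.635. A lack of calls therefore does not show that the differences are small. At an unadjusted p under 0.05 there were 4 of 36 (11.1%), against 7.82% of all genes tested. Of these, *Cd93* and *Slco1c1* were the 2 lower in KO (3.44% of all genes) and *Vtn* and *Abcc9* the 2 higher in KO (4.38% of all genes). edgeR's quasi-likelihood test and DESeq2 each also gave 0 members at the adjusted threshold and the same 4 genes at the unadjusted one, where edgeR called 7.90% of all genes and DESeq2 4.73%. The 3 KO values lay wholly on one side of the 3 WT values for 4 of 36 genes (11.1%, against 13% of all genes tested), which were *Cd93*, *Emcn* and *Rgs5* below and *Tie1* above. By sign alone, 17 genes were higher and 19 lower in KO, beside 51.9% of all genes higher. In bulk tissue, fewer cells of a type and less RNA per cell cannot be told apart.

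**Figure D2:**
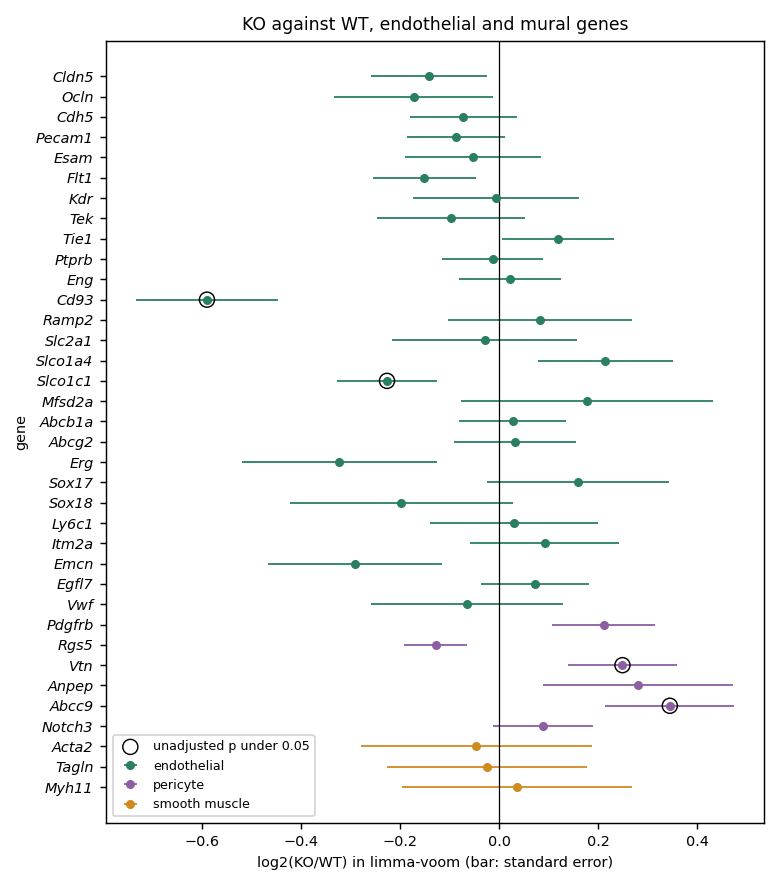
The log2 fold change (KO over WT, limma-voom) of each vessel gene with its standard error as a bar, coloured by class, a line at 0 and rings around the 4 genes with an unadjusted p under 0.05. The points spread from -0.59 for *Cd93* to 0.34 for *Abcc9*, and none has an adjusted p under 0.05.

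The endothelial genes spread around no change. Of 27, 11 were higher and 16 lower in KO (13 and 14 when scaled by library totals alone), with a median log2 fold change of -0.03 beside 0.01 for all genes tested, 2 had an unadjusted p under 0.05 (7.41%, against 7.82% of all genes) and 3 did not overlap between groups (11.1%, against 13%). The junction and adhesion genes were the role with one sign throughout, all 5 lower in KO with a median of -0.09 (4 of 5 under sample quality weights and without KO replicate 1, WT replicate 1 or WT replicate 3). That median was -0.03 without KO replicate 1, -0.05 without WT replicate 3 and -0.15 without WT replicate 2, and none of them had an unadjusted p under 0.05 in limma-voom (adjusted p 0.750 to 0.931). *Cldn5*, the main claudin of brain tight junctions, was at 21.5, 26.0 and 28.4 CPM for KO, with WT at 30.1, 24.8 and 28.0 CPM. *Ocln*, the tight junction protein occludin, was at 7.77, 5.95 and 6.17 CPM for KO against 7.05, 7.86 and 7.61 CPM for WT. In both genes KO libraries passed WT libraries, and the log2 differences were -0.14 ± 0.117 (SE) and -0.17 ± 0.160. *Cldn5* was at -0.02 without KO replicate 1 and -0.23 without KO replicate 3, and *Ocln* at -0.30 without KO replicate 1 and -0.11 without KO replicate 2. VE-cadherin *Cdh5* (-0.07), the adhesion molecule *Pecam1* (-0.09) and *Esam* (-0.05), an adhesion molecule of endothelial junctions, overlapped between groups too.

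Of the 8 receptors and receptor partners, *Cd93* had the lowest p of all vessel genes. *Cd93* (ENSMUSG00000027435.9, chromosome 2 at 148278560 to 148285483, minus strand, GRCm39) encodes a C-type lectin-like receptor that takes part in endothelial adhesion to the matrix. It was at 6.35, 7.54 and 6.64 CPM over the KO replicates, beside WT values of 10.3, 9.49 and 10.9 CPM. Every KO library lay below every WT library. The group means were 6.84 ± 0.618 and 10.3 ± 0.712 CPM (SD, n = 3 each), and the log2 fold change was -0.59 ± 0.143 (SE, adjusted p = 0.635, limma-voom). These levels rest on 85 to 94 fragments per KO library and 116 to 139 per WT library. *Cd93* lies on the chromosome of *Pla2g4e*, 28.2 Mb from it, and *Sox18*, *Eng* and *Egfl7* lie on it as well, 61.2 to 93.5 Mb away, with log2 fold changes of -0.20, 0.02 and 0.07.

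*Tie1*, the orphan partner of the angiopoietin receptor, was the receptor gene that stood apart in the other direction. It was at 12.8, 13.9 and 13.4 CPM for KO against 12.5, 12.6 and 11.7 CPM for WT, so the groups did not overlap, although KO replicate 1 and WT replicate 2 lay close together. Its log2 fold change was 0.12 ± 0.113 (SE, adjusted p = 0.779, limma-voom). *Tek*, the angiopoietin receptor itself, was at -0.10 and *Ptprb*, the phosphatase that acts on it, at -0.01. The VEGF receptors *Flt1* and *Kdr* were at -0.15 and -0.01, and the TGF-beta co-receptor *Eng* at 0.02. *Flt1* was at 70.4, 90.1 and 81.8 CPM for KO, with WT at 85.2, 81.2 and 101.8 CPM, and its highest and its lowest library belonged to different groups. *Ramp2*, the partner that turns the calcitonin receptor-like receptor into a receptor for adrenomedullin, was at 0.08.

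Of the 6 transporters, 4 were higher and 2 lower in KO, and 2 higher and 4 lower without KO replicate 1. *Slco1c1* (ENSMUSG00000030235.18, chromosome 6 at 141470094 to 141515903, plus strand, GRCm39), a carrier of thyroxine at the barrier, was at 43.2, 46.8 and 45.5 CPM for KO against 59.9, 44.9 and 54.5 CPM for WT. The KO values lay close together, and WT replicate 2 fell among them. The log2 fold change was -0.23 ± 0.101 (SE, adjusted p = 0.635, limma-voom), and it was -0.14 without WT replicate 1. The unadjusted p of *Slco1c1* was above 0.05 when any library but WT replicate 2 was left out. *Slc2a1*, which carries glucose across the barrier, was at 122, 63.2 and 82.9 CPM over the KO replicates, beside WT values of 94.3, 100.3 and 73.5 CPM. Its highest and its lowest library were both KO, and the group difference was -0.03 ± 0.187 on the log2 scale. *Mfsd2a*, a lipid carrier that restrains vesicle transport in barrier endothelium, showed the widest range of all 36 genes as the ratio of the highest to the lowest library, 28.5, 12.1 and 16.4 CPM for KO against 19.9, 16.3 and 13.03 CPM for WT. Again KO held both extremes, and the difference was 0.18 ± 0.255. The organic anion carrier *Slco1a4* was at 0.21 ± 0.136 (0.07 without WT replicate 2, and 0.40 with an unadjusted p under 0.05 without WT replicate 3) and the drug efflux pumps *Abcb1a* and *Abcg2* were at 0.03 each.

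The 3 endothelial transcription factors were low in level and their groups overlapped. *Erg*, an ETS family factor that maintains endothelial identity, was at 4.19, 5.28 and 4.37 CPM for KO, with WT at 4.62, 5.98 and 6.75 CPM, a log2 difference of -0.32 ± 0.198 (SE, adjusted p = 0.680, limma-voom). *Sox17* and *Sox18*, which act in arterial and lymphatic specification, were at 0.16 and -0.20. Among the other surface and secreted proteins, *Emcn* (chromosome 3 at 137046828 to 137137946, plus strand, GRCm39), a marker of capillary and venous endothelium, was at 4.39, 4.44 and 4.06 CPM for KO against 5.10, 5.81 and 4.94 CPM for WT. All KO libraries were below all WT libraries at 52 to 71 fragments each, with a log2 difference of -0.29 ± 0.176 (SE, adjusted p = 0.677, limma-voom). *Ly6c1*, *Itm2a* and *Egfl7*, which encode endothelial surface and matrix-bound proteins, were at 0.03, 0.09 and 0.07. *Vwf*, the clotting protein von Willebrand factor, ran from 15.96 CPM in WT replicate 2 to 31.8 CPM in WT replicate 3, which took in all KO values.

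Of the pericyte genes, 5 of 6 were higher in KO (51.9% of all genes tested) with a median log2 fold change of 0.23 beside 0.01 for all genes. The median was 0.08 without WT replicate 2. The 2 mural genes with an unadjusted p under 0.05 were pericyte genes, 2 of 6 (33.3%) against 7.82% of all genes. Both were above it without KO replicate 1, KO replicate 3 or WT replicate 2, and without KO replicate 3 no pericyte gene was under it. *Abcc9* (ENSMUSG00000030249.16, chromosome 6 at 142533588 to 142648041, minus strand, GRCm39) encodes the SUR2 subunit of the ATP-sensitive potassium channel. It was at 18.2, 13.8 and 17.3 CPM over the KO replicates, beside WT values of 12.3, 12.7 and 13.9 CPM. KO replicate 2 fell just below WT replicate 3, and the other KO libraries lay above all of WT. The log2 fold change was 0.34 ± 0.131 (SE, adjusted p = 0.635, limma-voom), and 0.26 to 0.45 with 1 library left out. The unadjusted p of *Abcc9* was above 0.05 when WT replicate 1 or 2 or KO replicate 1 or 3 was left out.

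*Vtn* (ENSMUSG00000017344.5, chromosome 11 at 78389917 to 78393150, plus strand, GRCm39) was at 88.9, 73.0 and 78.2 CPM for KO against 77.1, 56.1 and 70.3 CPM for WT. The ranges overlapped, and WT replicate 2 stood lowest. The log2 fold change was 0.25 ± 0.111 (SE, adjusted p = 0.635, limma-voom), and it was 0.12 without WT replicate 2. The unadjusted p of *Vtn* was above 0.05 when WT replicate 2 or 3 or KO replicate 1 or 3 was left out. *Pdgfrb*, the receptor that draws pericytes to the vessel, showed the same low library, at 33.7, 37.9 and 35.8 CPM for KO, with WT at 31.5, 26.5 and 34.9 CPM (log2 difference 0.21 ± 0.104 SE, adjusted p = 0.637, limma-voom). Its difference was 0.10 without WT replicate 2 and 0.30 without WT replicate 3. *Anpep*, the aminopeptidase CD13, was at 4.58 CPM in WT replicate 2 and at 7.38 to 7.96 CPM in all others, a difference of 0.28 ± 0.191. *Notch3*, the Notch receptor of mural cells, was at 0.09 ± 0.101.

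*Rgs5* was the pericyte gene lower in KO. It was at 102, 94.5 and 99.0 CPM for KO against 107, 109.9 and 106 CPM for WT, so that no KO library reached WT. The difference was small, -0.13 ± 0.064 (SE, adjusted p = 0.637, limma-voom), and *Rgs5* had the smallest SE of the 36 genes. *Rgs5* and *Vtn*, the most abundant pericyte genes, therefore had opposite signs. WT replicate 2, which was lowest for 4 of the 6 pericyte genes, was highest for *Rgs5*.

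**Figure D3:**
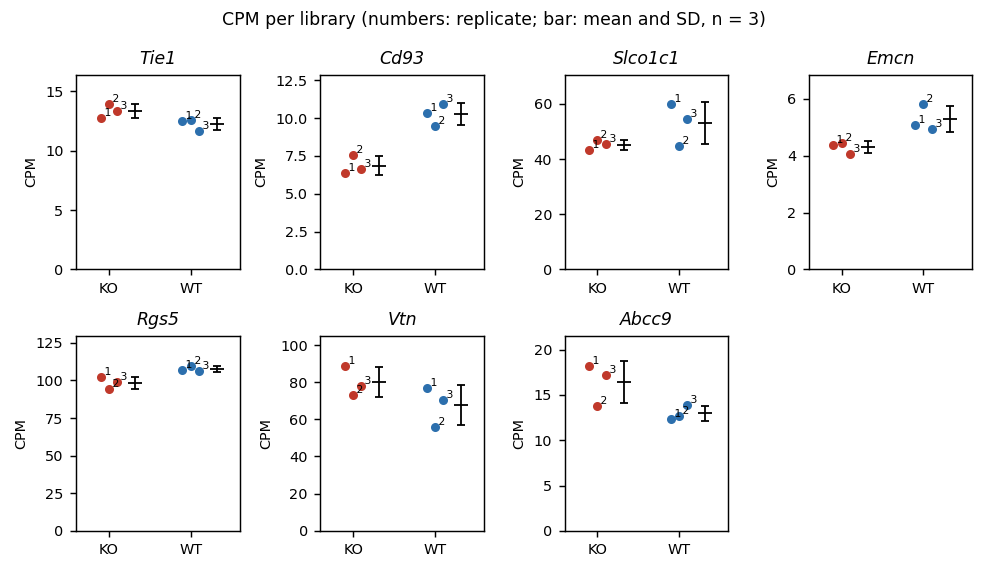
CPM in each library for the 7 genes with an unadjusted p under 0.05 or with groups that did not overlap, with points numbered by replicate, bars at the group mean and SD (n = 3) and each axis starting at 0. KO lies below WT for *Cd93*, *Emcn* and, by a small step, *Rgs5*, and the groups overlap for *Slco1c1*, *Vtn* and *Abcc9*.

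The 3 smooth muscle genes did not separate the groups, with log2 fold changes of -0.05, -0.03 and 0.04 for *Acta2*, *Tagln* and *Myh11* and adjusted p of 0.968 to 0.980 (limma-voom). *Acta2*, smooth muscle actin, was at 7.37, 11.98 and 8.98 CPM over the KO replicates, beside WT values of 7.05, 8.68 and 13.6 CPM. *Myh11*, smooth muscle myosin, was at 10.6, 11.6 and 10.4 CPM for KO against 7.45, 9.41 and 16.8 CPM for WT. WT replicate 3 was the highest library for all 3 genes, *Tagln* included at 6.44 CPM, while the KO libraries stayed closer together.

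The spread between libraries of a group was wider than counting alone gives. The within-group SD on the log2 scale was a median of 2.07 times the SD expected from the number of fragments, and 11 of the 36 genes reached at least 3 times that SD. *Slc2a1* stood highest at 8.91 times and *Mfsd2a* followed at 5.17 times, while *Rgs5* was at 1.12 times and *Cd93* at 0.835 times. This ratio grows with the number of fragments for a given spread. *Ramp2*, *Mfsd2a* and *Ly6c1* placed the 6 libraries in one identical order, from KO replicate 1 through WT replicate 1, KO replicate 3, WT replicate 2 and WT replicate 3 to KO replicate 2, and no other order was shared by any of the 36 genes. This order was noticed after the values were seen, and *Ly6c1* shows it at 24.1, 23.0, 19.3, 18.3, 16.2 and 14.99 CPM. The first 2 libraries in it are those of female pattern, which cannot be told apart here from other differences between single libraries.

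**Figure D4:**
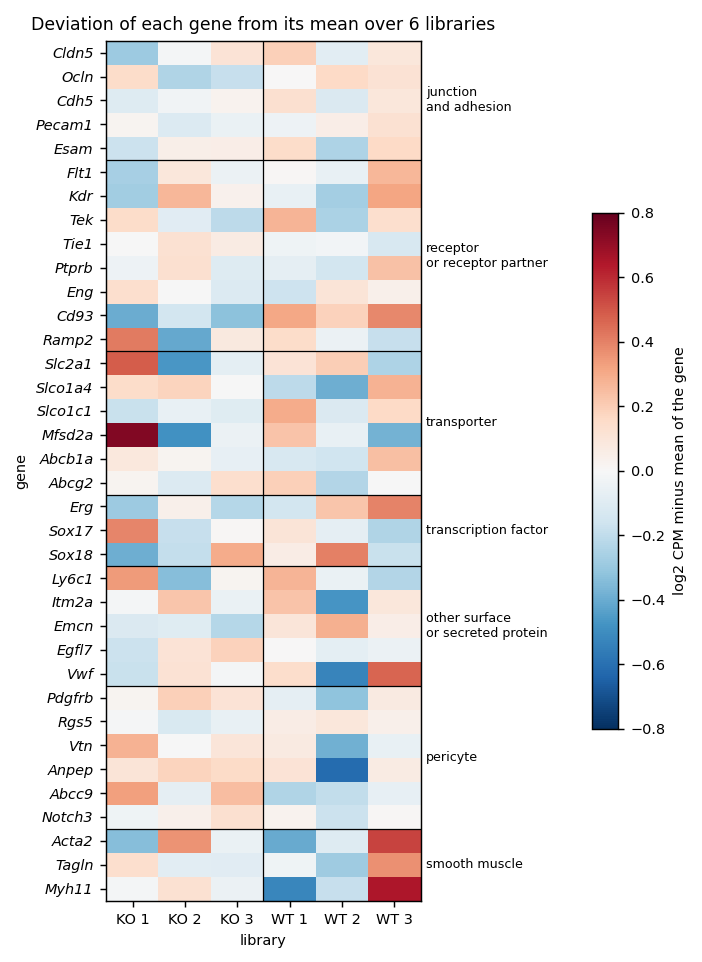
Deviation of each vessel gene in each library from its own mean over the 6 libraries, as log2 CPM in colour from blue (low) to red (high), with genes in rows by role and libraries in columns. Deviations run from -0.61 for *Anpep* in WT replicate 2 to 0.74 for *Mfsd2a* in KO replicate 1, and WT replicate 3 is high for the smooth muscle genes.

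Endothelial and mural genes were then set against each other within each library. A score was taken as the mean, over the genes of a class, of the deviation of log2 CPM from the gene's own mean over the 6 libraries. Endothelial minus mural scores were -0.05, -0.13 and -0.09 for the KO libraries, against 0.19, 0.17 and -0.11 for those of WT. The KO libraries were all slightly below 0, but WT replicate 3 lay among them, so the groups overlapped. The KO mean was below the WT mean by 0.17, with SDs of 0.041 in KO and 0.166 in WT (n = 3 each). The mural side differed more between WT libraries, at -0.11, -0.24 and 0.18, than between KO libraries, at 0.05, 0.07 and 0.05. The smooth muscle score of WT replicate 3 was 0.52, against -0.32 and -0.19 in the other WT libraries.

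In summed levels, the endothelial genes came to 158 to 181 FPKM and the mural genes to 68.8 to 86.5 FPKM per library. The ratio of endothelial to mural FPKM was 2.07, 2.0 and 2.03 for KO, with WT at 2.26, 2.30 and 2.07. WT replicate 3 again lay within the KO range. The group means were 2.03 ± 0.0375 and 2.21 ± 0.124 (SD, n = 3 each), a difference of -0.17. It was -0.0055 once the most abundant gene of each class, *Slc2a1* and *Vtn*, was left out. Without *Vtn* alone it was -0.0034, and without *Slc2a1* alone it was -0.15, a pair of settings added after the data were seen. Neither the score nor the ratio was tested.

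**Figure D5:**
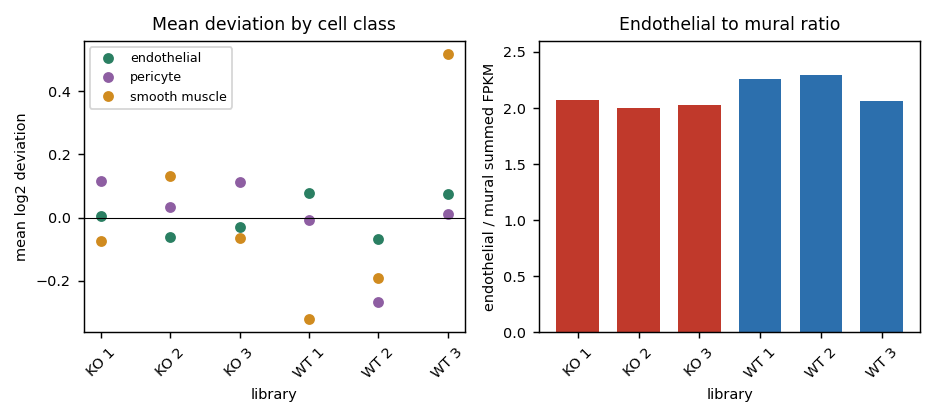
Endothelial, pericyte and smooth muscle scores (left, mean log2 deviation) and the endothelial to mural ratio of summed FPKM (right, bars from 0) in each library. KO libraries sit between 2.0 and 2.07 in the ratio, WT replicate 3 is at 2.07 and the other WT libraries are at 2.26 and 2.30, while the smooth muscle score of WT replicate 3 is the highest point on the left at 0.52.

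Markers of neighbouring cells also differed between libraries. WT replicate 2 was the lowest library for 5 of 9 mural and 9 of 27 endothelial genes, and KO replicate 1 for 8 of 27 endothelial genes. The summed CPM of 10 leptomeningeal fibroblast markers was also lowest in WT replicate 2, at 75.5. It was 178 in WT replicate 1, 109 in WT replicate 3 and 126 to 143 in KO. The highest sum, in WT replicate 1, came with a mural score of -0.11, while the highest mural score, 0.18, was in WT replicate 3. Of the fibroblast markers 9 of 10 were higher in KO (median 0.22, none with an unadjusted p under 0.05 in limma-voom), and none was at 0 in all libraries. That count was 10 of 10 without WT replicate 1 (median 0.48), but 3 of 10 without WT replicate 2. In the same library the summed CPM of 10 neuronal markers was highest, at 12323 against 11237 and 11305 in the other WT libraries and 10457 to 11557 in KO, and that of 10 astrocyte markers was lowest, at 4641 against 4910 to 5429 elsewhere. Neuronal markers were lower in KO for 8 of 10 (median -0.13), for 6 of 10 by library totals alone, and with a median of -0.06 without WT replicate 2 (6 of 10 lower) and -0.07 without KO replicate 1 (7 of 10), with *Snap25* and *Stmn2* at an unadjusted p under 0.05 in limma-voom (2 of 10, against 7.82% of all genes), and astrocyte markers higher for 10 of 10 (median 0.06, beside 51.9% of all genes), but for 4 of 10 without WT replicate 2 and 5 of 10 without KO replicate 1. Oligodendrocyte markers were higher for 9 of 10 (median 0.19, but 0.05 without WT replicate 1 and 0.43 without WT replicate 3), *Mal* at an unadjusted p under 0.05 (1 of 10, against 7.82% of all genes), with sums of 2343 to 2721 CPM in KO and 1814 to 3009 CPM in WT. Microglial markers were lower for 6 of 10 (median -0.02), for 3 of 10 by library totals alone, 10 of 10 without WT replicate 2 and 4 of 10 without WT replicate 1, with sums of 404.6 to 436 CPM in KO and 377 to 478 CPM in WT. Choroid plexus markers were higher for 4 of 6 tested (median 0.05, but 1 of 6 and -0.41 without WT replicate 1), with sums of 7.54 to 16.5 CPM in KO and 9.09 to 36.1 CPM in WT. The choroid plexus marker *Ttr* went the other way, at 0.251 to 0.625 CPM in KO against 1.72, 26.8 and 2.12 CPM in WT, a log2 difference of -3.22 ± 1.55 (SE, adjusted p = 0.637, limma-voom) with its highest value in WT replicate 2. Red blood cell markers, which show blood left in the vessels, were lower for 4 of 5 (median -0.06). Without KO replicate 1 that was 1 of 5, and without WT replicate 2 it was 2 of 5. Without KO replicate 3 (median -0.35) or WT replicate 1 (median -0.30) it was 5 of 5. The sums of these markers were 35.6 to 61.8 CPM in KO and 38.7 to 59.1 CPM in WT. The part of these cells in the values of the vessel genes was not tested.

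Other genes of the vascular pathways gave a like picture. In 11 lists of 100 genes, 98 were tested, none had an adjusted p under 0.05 in limma-voom, and 6 (6.12%, against 7.82% of all genes) had an unadjusted p under 0.05, 3 higher and 3 lower in KO. The groups did not overlap for 13 of 98 (13.3%, against 13% of all genes), 8 lower and 5 higher in KO. In VEGF and angiopoietin signalling, 5 of 10 were higher, and the VEGF co-receptor *Nrp1* was at -0.32 (17.7, 18.2 and 18.3 CPM in KO, 26.0, 23.7 and 18.5 CPM in WT, adjusted p = 0.635, limma-voom). It did not overlap between groups, and neither did *Plcg1*, a phospholipase downstream of VEGF receptors, at 0.08. All 5 genes of caveolae and vesicle transport were lower (median -0.11), but 4 of 5 by library totals alone and without KO replicate 2 or WT replicate 2, with a median of -0.19 without KO replicate 1 and -0.18 without WT replicate 2, *Cav2* at -0.19 (adjusted p = 0.635, limma-voom), and the groups of *Cav2*, *Cavin1* and the fenestral diaphragm protein *Plvap* did not overlap (3 of 5, against 13% of all genes). The caveolar genes summed to 88.8 to 91.3 CPM in KO and 96.0 to 100.6 CPM in WT.

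In PDGF-B signalling to mural cells, 5 of 6 genes were lower (median -0.12, and 4 of 6 lower by library totals alone). The ligand gene *Pdgfb* was at -0.12, beside 0.21 for its receptor gene *Pdgfrb* above, and *Tgfb1*, the growth factor TGF-beta 1, was at -0.42 (adjusted p = 0.635, limma-voom). The groups of *Tgfb1*, *Pdgfa* (-0.13) and *S1pr1* (-0.13) did not overlap, 3 of 6 against 13% of all genes, while those of *Pdgfb* did. The list summed to 208 to 213 CPM in KO and 223 to 238 CPM in WT. Most of that sum was *S1pr1*, at 129 to 136 CPM in KO and 142 to 150 CPM in WT. In BMP and TGF-beta signalling with endoglin, 4 of 9 tested genes were higher (6 of 9 without KO replicate 3 or WT replicate 1), among them the ligand *Bmp6* at 0.62 (adjusted p = 0.635, limma-voom), which was at 5.32 CPM in WT replicate 2. The Notch genes were higher for 8 of 10 (median 0.20, but 0.06 without WT replicate 2), none with an unadjusted p under 0.05 in limma-voom. The Wnt and beta-catenin genes of the barrier were higher for 8 of 14 (median 0.06). That was 6 of 14 without KO replicate 1 or WT replicate 2, but 11 of 14 without WT replicate 1. *Notch1* at 0.22 and the Wnt co-receptor *Adgra2* at 0.18 lay above WT without overlap. Among 10 other mural genes, 6 were higher (5 without WT replicate 2, but 8 without WT replicate 3, by library totals alone or under sample quality weights). *Higd1b*, a small mitochondrial protein found in pericytes, was at 0.57 (adjusted p = 0.635, limma-voom). It had 2.97 to 3.72 CPM in KO and 1.88 to 2.51 CPM in WT, without overlap. Of the genes of the basement membrane 7 of 9 were higher (4 of 9 without WT replicate 2), including nidogen *Nid1* at 0.36 (adjusted p = 0.635, limma-voom). Other tight junction genes were higher for 4 of 8 (2 of 8 without KO replicate 3), other barrier transporters for 6 of 10 (3 of 10 without WT replicate 2) and other contractile genes for 6 of 7 tested (3 of 7 without KO replicate 1), with none at an unadjusted p under 0.05 in limma-voom. The amino acid carrier *Slc38a5* at -0.48 and the myosin kinase *Mylk* at 0.23 did not overlap between groups.

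Promoter sequence was read for 24 of the 36 genes, 18 endothelial and 6 mural, from RefSeq on GRCm38.p6, a build other than that of the counts, as the 250 bases before each start. The letters AGGAAG, the core bound by many ETS factors, were looked for on both strands after the sequences had been seen. They stood in 12 of 18 endothelial promoters (66.7%), in 0 of 6 mural promoters and in 32.3% of 27025 promoters in all. CCGGAAG, a longer form that overlaps the core in part, was in 0 of 18, 0 of 6 and 7.83%, TATAAA in 3 of 18, 1 of 6 and 14.3%, and the CArG box bound by serum response factor in 0 of 18, 0 of 6 and 1.62%. A match is a description of letters and not of a bound site. Shown are the genes of both classes with an unadjusted p under 0.05 (limma-voom) or groups without overlap that had a sequence. Capitals mark AGGAAG or its reverse complement, and each sequence is written 5′ to 3′ on the strand of its gene. The match in *Tie1* (chr4:118489850-118490099, minus strand) begins 219 bases before the start, that in *Slco1c1* (chr6:141524104-141524353, plus strand) 128 bases and those in *Emcn* (chr3:137340828-137341077, plus strand) 174 and 93 bases before it. *Rgs5* (chr1:169655251-169655500, plus strand), *Vtn* (chr11:78498870-78499119, plus strand) and *Abcc9* (chr6:142702275-142702524, minus strand) hold none.
Tie1: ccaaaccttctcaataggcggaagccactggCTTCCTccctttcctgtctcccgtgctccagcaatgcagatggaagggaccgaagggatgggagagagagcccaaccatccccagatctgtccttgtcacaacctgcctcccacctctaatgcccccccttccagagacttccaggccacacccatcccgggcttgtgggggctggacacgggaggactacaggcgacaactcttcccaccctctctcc
Slco1c1: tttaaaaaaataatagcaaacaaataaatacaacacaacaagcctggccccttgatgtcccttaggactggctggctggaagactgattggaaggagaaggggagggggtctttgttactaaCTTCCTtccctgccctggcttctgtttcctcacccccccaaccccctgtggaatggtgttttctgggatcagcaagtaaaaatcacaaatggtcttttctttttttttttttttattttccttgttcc
Emcn: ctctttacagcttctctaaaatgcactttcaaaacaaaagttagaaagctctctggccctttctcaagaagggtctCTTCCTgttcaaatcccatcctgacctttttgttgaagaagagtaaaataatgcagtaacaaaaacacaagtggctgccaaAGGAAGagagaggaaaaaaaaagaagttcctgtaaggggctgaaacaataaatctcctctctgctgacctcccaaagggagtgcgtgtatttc
Rgs5: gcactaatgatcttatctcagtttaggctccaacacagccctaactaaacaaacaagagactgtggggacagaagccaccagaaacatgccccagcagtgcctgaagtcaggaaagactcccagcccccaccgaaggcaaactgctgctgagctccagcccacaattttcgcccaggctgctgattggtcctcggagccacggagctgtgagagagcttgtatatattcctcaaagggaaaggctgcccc
Vtn: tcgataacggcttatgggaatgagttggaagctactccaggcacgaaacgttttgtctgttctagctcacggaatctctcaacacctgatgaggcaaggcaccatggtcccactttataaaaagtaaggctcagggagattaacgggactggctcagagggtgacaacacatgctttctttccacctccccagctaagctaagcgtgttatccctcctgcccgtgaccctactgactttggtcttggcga
Abcc9: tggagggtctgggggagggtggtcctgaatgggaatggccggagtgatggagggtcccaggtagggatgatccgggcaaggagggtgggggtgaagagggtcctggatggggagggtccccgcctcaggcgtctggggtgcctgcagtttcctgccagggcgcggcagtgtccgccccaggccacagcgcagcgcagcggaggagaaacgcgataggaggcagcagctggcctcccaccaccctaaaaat

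Of the 3 genes shown with a match, *Tie1* was higher and *Slco1c1* and *Emcn* lower in KO, and of the 3 without, *Vtn* and *Abcc9* were higher and *Rgs5* lower.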

How the data were processed

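Polyadenylated RNA of 6 prefrontal cortex samples (3 KO, 3 WT, grouped by title) was made into strand-specific libraries. The authors deposited raw counts of fragments per gene, made per the submitters' processing notes with FastQC 0.11.8 and STAR 2.7.9a, and per the file headers with featureCounts 1.6.0 (paired, reverse-stranded, exons by gene) on GENCODE M31 of GRCm39, whereas an older assembly is named in the study's methods. Fragments that map to several places or genes were not counted, which lowers genes with near copies such as *Ly6c1*. The exon length of each gene was deposited beside its counts.

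Genes that reached 6 fragments in any library were tested as in the study (19084 of 56923), with TMM factors (edgeR 4.0.16) and limma-voom (limma 3.58.1, R 4.3.3), two-sided, without covariates, with p-values adjusted by Benjamini-Hochberg across every tested gene at a threshold of 0.05. CPM and FPKM were computed from the counts after TMM scaling. Totals of 11792463 to 14594230 fragments set the precision of low genes such as *Emcn*. Symbols came from an annotation of the previous assembly (52073 genes matched). The members were taken by name, with no measured value in the rule, but they, the other lists and the motifs were chosen with earlier results of these data known. Values in every library were given for members with an unadjusted p under 0.05, for the member of lowest p and of highest FPKM in each class and for those without overlap, and other members were added for their roles or spread. The fit was tested on simulated data. The planted changes there were larger than any log2 difference of a vessel gene, so smaller ones were not covered. Alternatives were edgeR's quasi-likelihood test, DESeq2 1.42.0, its size factors (RLE), library totals, other filters, sample quality weights, a replicate block, a Y-linked covariate and leaving out each library. No set test was run.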

Additional observations from a re-analysis of the deposited data

How the results depend on the processing

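Of the 36 vessel genes, 18 kept the sign of their log2 fold change under all 15 alternatives and 18 changed it under at least 1. *Cd93* had an unadjusted p under 0.05 under 15 of 15 (log2 fold change -0.66 to -0.53, adjusted p 0.222 to 0.925 over limma-voom, edgeR and DESeq2), *Abcc9* under 11, *Vtn* under 10 and *Slco1c1* under 8. Over all genes, the count at the adjusted threshold was 0 in limma-voom, 1 with DESeq2, 22 with the Y-linked covariate and 0 to 1 when a library was left out, and no vessel gene was among them. Vessel genes at an unadjusted p under 0.05 numbered 1 to 5 when a library was left out, with *Cd93* alone left without KO replicate 3, and those without overlap 5 to 10, where fewer libraries make separation easier by construction. When a library was left out, the endothelial median ran from -0.09 (without WT replicate 2) to 0.0015 (without WT replicate 3) and the mural median from 0.03 to 0.28 without the same libraries. Scaling by library totals alone moved the median of all genes from 0.01 to 0.03. The difference in the endothelial to mural ratio was -0.0055 without *Slc2a1* and *Vtn*, -0.0034 without *Vtn* alone and -0.15 without *Slc2a1* alone. Depth limits *Emcn*, *Erg*, *Sox18* and *Tagln* most, at 50 to 86 fragments per library.

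Deviations of same-numbered libraries were correlated at 0.230 for replicate 1, the libraries of female pattern. They were at 0.045 and -0.0136 for replicates 2 and 3, so the replicate numbers did not pair the samples throughout. With a replicate block the same 4 vessel genes had an unadjusted p under 0.05 and *Myh11* turned to -0.028. Other signs turned with edgeR for *Kdr* (0.0029), *Slc2a1* (0.0058) and *Myh11* (-0.046), with DESeq2 for *Myh11* (-0.050), with library totals for *Kdr* (0.020), *Ptprb* (0.012) and *Tagln* (0.00066), with sample quality weights for *Esam* (0.0083), *Kdr* (0.064), *Eng* (-0.027), *Ly6c1* (-0.0048) and *Vwf* (0.017), and with the Y-linked covariate for *Kdr* (0.016). The cause was not tested.

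Leaving out 1 library at a time gave log2 fold changes of -0.18 to 0.029 for *Esam*, -0.14 to 0.15 for *Kdr*, -0.25 to 0.015 for *Tek*, -0.087 to 0.098 for *Ptprb*, -0.058 to 0.081 for *Eng*, -0.13 to 0.28 for *Ramp2*, -0.29 to 0.18 for *Slc2a1*, -0.19 to 0.43 for *Mfsd2a* and -0.043 to 0.15 for *Abcb1a*. The others ran from -0.076 to 0.14 for *Abcg2*, -0.016 to 0.28 for *Sox17*, -0.15 to 0.19 for *Ly6c1*, -0.12 to 0.23 for *Itm2a*, -0.0032 to 0.19 for *Egfl7*, -0.34 to 0.15 for *Vwf*, -0.26 to 0.22 for *Acta2*, -0.17 to 0.15 for *Tagln* and -0.22 to 0.37 for *Myh11*. Among genes that kept their sign, the same ranges were -0.15 to -0.027 for *Cdh5*, -0.13 to -0.051 for *Pecam1*, -0.24 to -0.053 for *Flt1*, -0.39 to -0.030 for *Sox18*, -0.48 to -0.20 for *Erg*, 0.051 to 0.41 for *Anpep* and 0.025 to 0.13 for *Notch3*. An unadjusted p under 0.05 was also reached by *Slc2a1* and *Pdgfrb* without KO replicate 1, *Erg* without WT replicate 1, *Vwf* without WT replicate 2, and *Slco1a4*, *Pdgfrb* and *Myh11* without WT replicate 3. Over all 15 alternatives it was reached by *Pdgfrb* under 4 and by *Rgs5* under 1. By library totals alone *Pdgfrb* reached it and *Slco1c1* missed it, and *Vtn* missed it with edgeR's filterByExpr. The alternatives named here for *Pdgfrb*, *Rgs5* and *Slco1c1* are not the full set. *Abcc9* missed it when WT replicate 1 or 2 or KO replicate 1 or 3 was left out, *Vtn* when WT replicate 2 or 3 or KO replicate 1 or 3 was, and *Slco1c1* in each case but WT replicate 2.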
